A study of Mus musculus with 5 samples.

Results

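Organoids of the mouse submandibular salivary gland, kept in culture for 11 days, were compared with the fresh gland. The comparison rests on 2 of the 5 single-cell libraries of the series, labelled as untreated organoids of day 11 and as fresh tissue, with 1 library on each side. Barcodes were kept when they held at least 200 detected genes and when at most 5% of their unique molecular identifiers (UMIs, which count captured mRNA molecules) were mitochondrial. This left 10339 of 14266 barcodes of 11-day organoids and 1418 of 13547 of the tissue. UMIs were then summed per gene over the 30406 genes found in the gene lists of both libraries, and expressed as counts per 1000000 UMIs (CPM).

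Both libraries came from C57BL/6 mice, and the study used female animals only. The tissue label gives an age of 8 to 12 weeks, while the label of the 11-day organoids gives none. Neither library was irradiated. Organoids were grown from the cells of 4 animals in Matrigel, a basement membrane gel. The medium, called WRY, held EGF, FGF2, N2, insulin, dexamethasone, the ROCK inhibitor Y27632 and conditioned media with R-spondin1 and Wnt3a. The tissue was dissociated with trypsin like the organoids, and cells that excluded propidium iodide were sorted before loading. The 11-day organoids came from other animals than the rest of the series and were sequenced in a separate run. Culture, batch of animals, run, counting software and gene list therefore differ together between the 2 libraries, and their parts cannot be told apart. With 1 library per side there was no test of any difference. Intervals beside the values, at the 95% level, cover counting error only, and leave out any variation between animals, cultures or preparations.

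As background, acinar cells of the submandibular gland make the water, mucins and proteins of saliva. Ducts then change its salts and, in rodents, add kallikreins, a family of secreted serine proteases, and growth factors. Basal duct cells lie on the basement membrane, carry keratins 5 and 14 and the transcription factor p63, and can give rise to new epithelium in culture.

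The libraries differed in composition before any gene was compared. The organoids held 35710166 UMIs of matched genes, with a median of 3078 UMIs and 1611 genes per barcode, against 6007595 UMIs, 2392 UMIs and 278 genes in the tissue. After each barcode was thinned to 1000 UMIs, the median was 680 genes in organoids and 142 in tissue. The nuclear RNA Malat1 made up at least 1% of UMIs in 98.86% of the organoid barcodes and in 11.28% (160) of the tissue barcodes. A total of 6 kept barcode sequences occurred in both libraries. Values in untreated 7-day organoids (6872 barcodes, 16382847 UMIs) are set beside some results. The 7-day barcodes had medians of 904 UMIs and 448 genes, and 15.25% (1048) of them held at least 1% Malat1. Ratios of 7-day organoids to tissue use the same tissue library and are no separate evidence.

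Secreted proteins filled the tissue library. Mucl2, a mucin-like secretory protein, had 523563.8 CPM (522985.3 to 524142.7) in tissue, and no UMI in 11-day organoids, so it was at least 6232182.9-fold lower there against a floor of 3 UMIs. The androgen-binding secretoglobins Scgb1b27 and Scgb2b27 had 77708.6 and 48547.4 CPM in tissue and no UMI in organoids either. The 20 genes with most tissue UMIs made up 79.12% (79.09 to 79.16) of the tissue UMIs, 7.32% (7.31 to 7.33) of those of 11-day organoids and 4.74% of those of 7-day organoids.

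Not all of these 20 genes were low in culture. Acinar and duct products among them, Prol1, Scgb2b26, Smgc, Car6, Pip and Klk1, ranged from 6320.7 to 24493.3 CPM in tissue and from 0 to 1.68 CPM in 11-day organoids. Cd74, the invariant chain of MHC class II, had 2992.4 CPM in tissue and 0.644 in organoids, and the beta-globin gene Hbb-bs had 1818.9 CPM in tissue and 0 UMIs in organoids. In contrast, Malat1 had 4309.9 CPM in tissue and 32557.3 in organoids, and Fth1, the heavy chain of the iron store ferritin, had 2041.9 and 15425.4 CPM. Gm42418, a gene model known for collecting reads of ribosomal RNA, had 27455.1 CPM in tissue, 4070.7 in 11-day and 14367.7 in 7-day organoids.

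**Figure D1:**
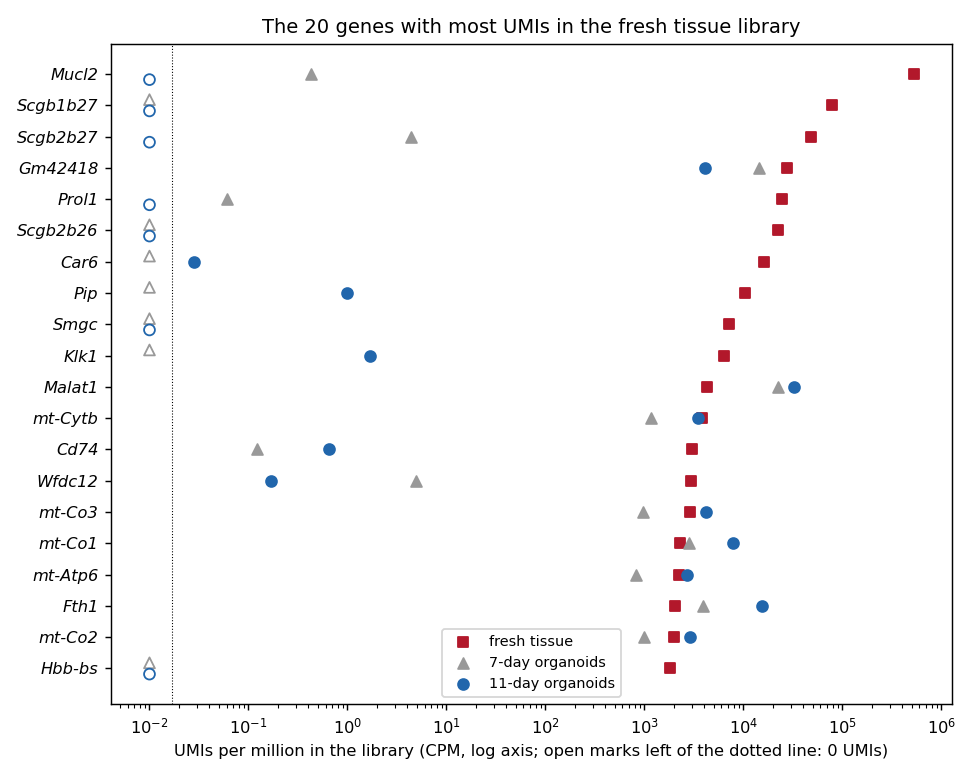
The 20 genes with most UMIs in fresh tissue are shown with their CPM (log axis) in fresh tissue (squares), 7-day organoids (triangles) and 11-day organoids (circles), open marks standing for 0 UMIs. Secretory genes from Mucl2 (523563.8 CPM) to Klk1 (6320.7 CPM) lie at or below 1.68 CPM in 11-day organoids, whereas Malat1, Fth1 and the mitochondrial genes lie between 825.9 and 32557.3 CPM in all 3 libraries.

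Because so few genes fill the tissue library, the scale decides how every other gene looks. Each gene was therefore compared as CPM over all matched UMIs and again as CPM with the 20 genes left out of the totals. This lowers each ratio of organoids to tissue by 4.44-fold before 1 CPM is added. For genes without a tissue UMI the ratio of CPM plus 1 rises slightly instead, as for Krt6b from a log2 ratio of 3.36 to 3.46. A gene was called higher or lower in 11-day organoids only when the ratio of CPM plus 1 was at least 2-fold in the same direction on both scales. Folds below are given over all UMIs first, and then without the 20 genes. In sums of this kind, fewer cells of a type and less RNA per cell cannot be told apart.

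Of 15400 genes with at least 10 UMIs in the 2 libraries, 3706 (24.1%) were higher in 11-day organoids, 988 (6.42%) were lower, and 10706 were neither. The median log2 ratio over these genes was 1.63 over all UMIs and 0.24 without the 20 genes. Many of the calls rest on absence from a library. Of the genes called higher, 1000 had no UMI in tissue, and 320 of these were at least 2-fold higher on both scales when the tissue was set at 3 UMIs. Of the genes called lower, 188 had no UMI in organoids. Near the limits, 374 genes lay within 0.1 log2 units above the threshold for higher and 396 within 0.1 below it, with 33 and 39 for lower.

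**Figure D2:**
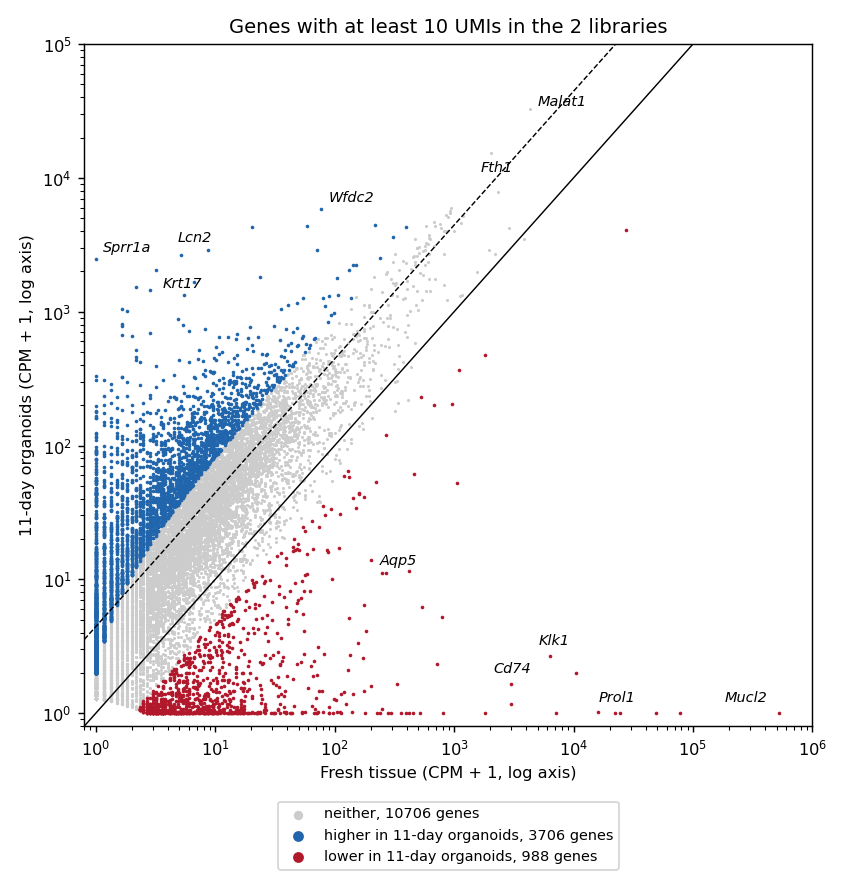
Each point is a gene, with its CPM plus 1 in fresh tissue on the horizontal and in 11-day organoids on the vertical log axis. The solid line marks equal CPM and the dashed line equal CPM without the 20 genes, and genes called higher (3706) and lower (988) lie outside the band around both lines.

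By the rule for named genes the 12 highest were Sprr1a, Cp, Krt17, Mgp, Krt5, Lcn2, Krt15, Rbms3, Slc7a11, Ecm1, S100a14 and Defb1. Sprr1a, a small proline-rich protein of the cornified envelope, had 2454.8 CPM (2438.6 to 2471.1) in 11-day organoids, 569.1 in 7-day organoids and no UMI in tissue. It was at least 4915.8-fold higher over all UMIs and at least 1107.2-fold without the 20 genes. The 12 lowest were Mucl2, Scgb1b27, Scgb2b27, Prol1, Scgb2b26, Car6, Smgc, Pip, Wfdc12, Klk1, Cd74 and Hbb-bs, of which 10 encode secreted proteins and the other two belong to immune and red blood cells.

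The promoters of the genes at both ends are shown because they anchor the comparison, as the 250 bases before the start site in the RefSeq annotation of GRCm38.p6. Sprr1a lies at chr3:92485882-92486131 on the minus strand and Mucl2 at chr15:103899313-103899562 on the minus strand. Capitals mark 2 motifs searched on both strands, which do not overlap each other here. The TATA box was searched as TATAAA. The AP-1 motif was searched as TGANTCA.
Sprr1a: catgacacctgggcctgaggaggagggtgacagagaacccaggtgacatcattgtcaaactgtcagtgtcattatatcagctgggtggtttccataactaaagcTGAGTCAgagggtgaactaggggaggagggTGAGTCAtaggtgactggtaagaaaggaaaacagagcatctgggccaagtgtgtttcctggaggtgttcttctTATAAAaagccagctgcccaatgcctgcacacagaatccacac
Mucl2: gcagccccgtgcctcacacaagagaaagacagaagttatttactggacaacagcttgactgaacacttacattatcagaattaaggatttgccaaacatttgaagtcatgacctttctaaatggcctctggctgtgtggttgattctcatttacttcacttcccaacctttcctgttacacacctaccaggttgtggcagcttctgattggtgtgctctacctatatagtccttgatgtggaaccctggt

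Sprr1a held 1 TATA box and 2 AP-1 motifs, and Mucl2 held neither. Of the 12 highest genes 7 had a promoter in the reference, and 4 of these held the TATA letters (Cp, Ecm1, Rbms3 and Sprr1a) and 3 the AP-1 letters (Cp, Ecm1 and Sprr1a). Of the 12 lowest genes 11 had a promoter, with the TATA letters in Pip, Scgb2b26 and Smgc and the AP-1 letters in Pip alone. Over 27025 genes with a promoter the shares were 14.33% for the TATA box and 7.82% for the AP-1 motif. A match describes letters only.

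Acinar secretory products were lower in organoids with a single exception. Of 23 listed genes, 20 were in both gene lists and 15 reached 10 UMIs, and 14 of these were lower and 1 was higher, against 6.42% lower and 24.1% higher among all measured genes. They had a median log2 ratio of -12.37 over all UMIs and -14.58 without the 20 genes. Their summed level was 730732.5 CPM in tissue, 46.49 in 11-day and 4.94 in 7-day organoids. Smgc, submandibular gland protein C, had 7157.1 CPM in tissue and no UMI in 11-day organoids. The salivary peroxidase Lpo had 67.58 CPM in tissue and 0.0840 CPM, or 3 UMIs, in organoids. Dcpp1 and Dcpp3, which encode demilune cell proteins and are near-identical copies whose reads cannot be divided with certainty, kept 4.14 and 5.46 CPM in 11-day organoids and 0 in 7-day organoids, against 129.8 and 175.6 CPM in tissue. In the 10221 organoid barcodes with at least 1% Malat1, Dcpp1 had 1 of its 148 UMIs and Dcpp3 21 of 195, so few barcodes carry them. Amy1, the salivary amylase, was the exception, with 35.73 CPM in 11-day organoids, 0.0610 in 7-day organoids and 0.166 CPM, or 1 UMI, in tissue. Its ratio to tissue was 214.7 (38.46 to 8485.3).

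Kallikreins and other duct products were lower in organoids in all 17 measured cases of 18 listed, against 6.42% of all measured genes. Klk1, tissue kallikrein, had 6320.7 CPM in tissue and 1.68 CPM in 11-day organoids, 3761.9-fold lower (2921.9 to 4930.7). Klk1b26 had 714.9 and 1.32 CPM. Egf, the epidermal growth factor, was closest to the tissue level, with 15.15 CPM in tissue and 2.41 in organoids, 6.29-fold lower (4.63 to 8.55). The Klk1b genes are close copies of each other, so the division of reads among them is uncertain and their calls are not independent. Summed over the list, the level was 7943.9 CPM in tissue and 22.26 in 11-day organoids. None of the 17 was higher.

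Genes of fluid and ion transport were called in both directions. Of 20 measured, 5 were higher, close to the 24.1% of all measured genes, 5 were lower, against 6.42% of all, and 10 were neither. Aqp5, the apical water channel of acinar cells, had 201.2 CPM in tissue and 12.99 in 11-day organoids, 15.49-fold lower (13.90 to 17.28) over all UMIs and 68.76-fold without the 20 genes. Slc12a2, the basolateral chloride loader, was lower by 3.67-fold (3.38 to 3.98) and 16.29-fold. The potassium channel Kcnn4 and the sodium pump regulator Fxyd2 were lower too, at 16.10 against 106.7 CPM and 198.2 against 679.6 CPM. The fifth lower gene was Car2, a cytosolic carbonic anhydrase, with 0.364 CPM in organoids and 23.14 in tissue.

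The 5 higher transport genes included partners of the same secretion machinery. Ano1, the calcium-activated chloride channel, had 96.42 CPM in 11-day organoids and 8.49 in tissue, 11.36-fold higher (8.62 to 15.28) and 2.56-fold without the 20 genes. Chrm3, the muscarinic receptor that drives saliva flow, had 102.5 CPM in 11-day organoids, 0.794 in 7-day organoids and 5.49 in tissue. Slc4a4, a bicarbonate transporter, had 85.27 CPM against 0.499 CPM, or 3 UMIs, in tissue, a ratio of 170.8 (58.37 to 828.5). The sodium channel subunit Scnn1a was also among them. The sodium pump subunit Atp1b1 stayed between the scales, as did the chloride transporter Clcn3 at 111.8 and 20.14 CPM.

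In the secretory pathway, 14 of 16 genes were neither and 2 were lower, against 6.42% of all measured genes. The lower genes were Bhlha15 (Mist1) and Creb3l1, which are transcription factors of secretory cells. Bhlha15 had 221 UMIs in tissue (36.79 CPM) and 1 UMI in organoids, a ratio of tissue to organoids of 1313.7 (233.3 to 52118.7). Creb3l1 had 34.46 CPM in tissue and 0.392 in organoids. Xbp1, which drives the unfolded protein response, had 66.25 and 52.93 CPM, and the chaperone Hspa5 had 180.1 and 514.4 CPM. Over all UMIs 11 of the 16 ratios favoured organoids, while without the 20 genes 15 of the 16 favoured tissue, with Pdia6 at 1.04-fold the other way.

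Genes shared by simple epithelia were present on both sides. Of 12 measured, 4 were higher, near the 24.1% of all measured genes, and 8 neither. Epcam, the epithelial adhesion molecule, had 1286.2 CPM in 11-day organoids, 784.1 in 7-day organoids and 151.0 in tissue, 8.52-fold higher (7.98 to 9.11) over all UMIs and 1.92-fold without the 20 genes, short of the call. The luminal keratins Krt8 and Krt18 were 3.57-fold and 3.23-fold higher over all UMIs and 0.803-fold and 0.729-fold without the 20 genes, so their direction depends on the scale. Krt7 and Krt19 were higher on both, with Krt7 at 1052.5 and 34.79 CPM and Krt19 at 49.87 and 0.666 CPM. Cdh1 and Cldn4 were the other two, and Cldn4 lay just past the threshold at 2.02-fold without the 20 genes.

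Of 8 basal and stress keratins 7 were higher, against 24.1% of all measured genes. Their median log2 ratio was 6.81 over all UMIs and 5.08 without the 20 genes. Krt5 had 36339 UMIs (1017.6 CPM) in 11-day organoids and 5 UMIs (0.832 CPM) in tissue, 1222.7-fold higher (523.9 to 3765.8) and 275.4-fold without the 20 genes. Krt14, its partner, had 1655.3 CPM and 5.66 CPM. Krt15 had 814.0 and 0.666 CPM, and Krt17, a keratin of activated epithelium, had 2038.2 and 2.16 CPM. These 4 genes were at 558.3 to 5918.0 CPM in 7-day organoids. The stress keratin Krt6a had 108.3 CPM in 11-day organoids, 1624.0 in 7-day organoids and 1.17 in tissue. Krt6b and Krt16 had no UMI in tissue and 9.27 and 9.91 CPM in 11-day organoids, while Krt75 had 14 UMIs in organoids and was neither.

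At least 2 UMIs of the basal duct markers Krt5, Krt14, Krt15, Krt17, Trp63 and Col17a1 were found in 98.18% (97.91 to 98.43) of the organoid barcodes and in 0.494% (0.199 to 1.01), or 7, of the tissue barcodes. After thinning to 1000 UMIs the shares were 89.94% and 0.285%. The label of the organoid library as gland epithelium therefore fits its duct and basal duct markers, at 97.80% and 98.18% of barcodes. The tissue library held 0.423% of barcodes with myoepithelial markers and 0.494% with fibroblast and mural markers, and 4 of the 10 fibroblast and mural genes had no UMI in it. Markers of basal, myoepithelial and stromal cells were thus rare in the tissue barcodes with which the organoids are compared.

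All 12 genes of adhesion to the basement membrane were higher, against 24.1% of all measured genes. Their median was 4.27 over all UMIs and 2.39 without the 20 genes. With the 160 tissue barcodes that held at least 1% Malat1, 8 of the 12 were higher, and 3649 over all genes, against 3706 as reported. Trp63, which encodes p63, had 172.8 CPM in 11-day organoids, 67.51 in 7-day organoids and 1 UMI in tissue, a ratio of 1038.2 (186.3 to 41011.7). Col17a1, a hemidesmosome collagen, had 123.7 CPM and no UMI in tissue, at least 247.7-fold higher. Lama3 and Lamb3, which encode laminin chains of the basement membrane, had 136.4 and 81.32 CPM against 2.00 and 0.999 CPM. The integrin genes Itga6 and Itgb4 had 413.8 and 171.1 CPM against 25.47 and 6.99 CPM. Itgb1 was closest to the threshold, at 8.93-fold (8.04 to 9.94) over all UMIs and 2.01-fold without the 20 genes.

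Desmosomes, the junctions that join keratin networks of neighbouring cells, followed, with 7 of 10 genes higher and none lower. Among all measured genes 24.1% were higher. Dsg3 had 78.10 CPM in 11-day organoids and no UMI in tissue, and its partner Dsc3 had 110.5 CPM and 0.832 CPM. Perp, a desmosome protein and p53 target, had 782.3 CPM in 11-day organoids, 4472.9 in 7-day organoids and 30.13 in tissue. Dsg2 and Pkp2, the forms of simple epithelium, and Jup were neither.

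Cornification genes, which build the outer layer of squamous epithelium, were higher in 15 of 20 measured cases of 24 listed, against 24.1% of all measured genes. Of the 20, 14 had no UMI in tissue. With the tissue at its floor of 0.499 CPM, Sprr2a1, Sprr2e, Sprr2h and Lor would fall short of 2-fold without the 20 genes. These had 1.18 to 3.56 CPM in 11-day organoids. The median log2 ratio was 3.46 over all UMIs and 3.04 without the 20 genes, and 4.21 and 2.06 with the absent genes at the floor. Ly6d had 4300.8 CPM in 11-day organoids, 3490.1 in 7-day organoids and 19.31 in tissue, 222.7-fold higher (185.7 to 269.6) and 50.17-fold without the 20 genes. Most other members were lower in 11-day than in 7-day organoids while still above tissue. Sprr2f had 50.85 CPM on day 11, 3341.1 on day 7 and 0 in tissue. Krtdap, a protein of differentiating keratinocytes, had 38.73, 601.5 and 0 CPM, and the mucosal keratin Krt13 had 87.76, 593.5 and 0.166 CPM. Sprr1a went the other way, at 2454.8 and 569.1 CPM. Sprr2 genes are close copies, so their single values are uncertain. The day 7 and day 11 libraries also differ in batch, in software and in the share of barcodes with at least 1% Malat1, at 15.25% and 98.86%.

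**Figure D3:**
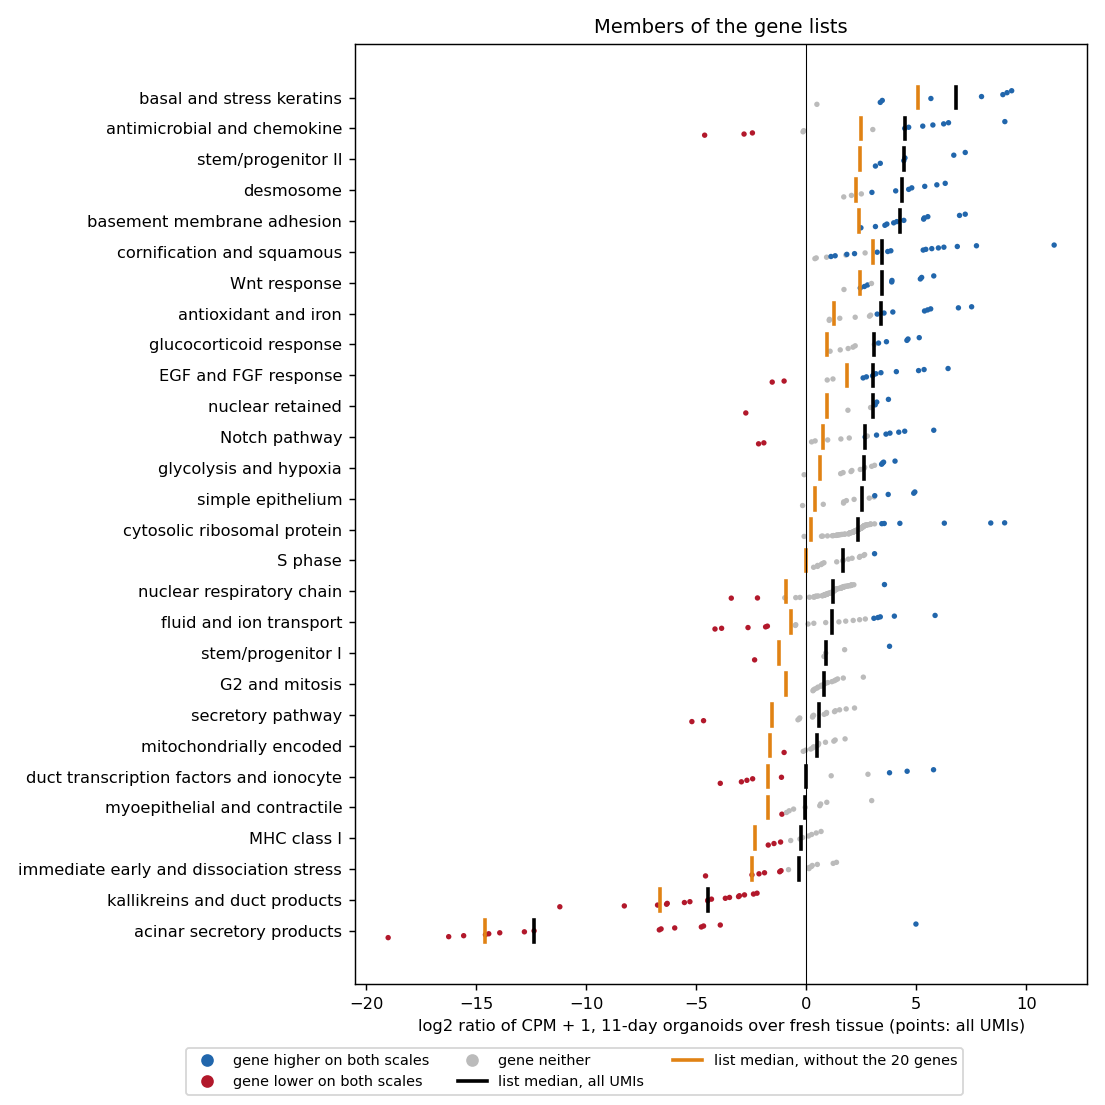
Points are genes of 28 lists, placed by the log2 ratio of CPM plus 1 of 11-day organoids over fresh tissue (all UMIs), blue when higher, red when lower and grey when neither on both scales. Black bars mark list medians over all UMIs and orange bars those without the 20 genes, from 6.81 and 5.08 for basal keratins down to -12.37 and -14.58 for acinar products.

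Stem/progenitor markers came from the populations that the study named in these organoids, apart from Kit, so the lists were chosen on the culture and are no independent evidence of its direction. Of 5 genes of stem/progenitor I, 1 was higher, near the 24.1% of all measured genes, 1 lower, against 6.42% of all, and 3 neither. Sox9, a transcription factor of gland progenitors, had 118.1 CPM in 11-day organoids and 34.79 in tissue, 3.40-fold higher (2.96 to 3.92) over all UMIs and 0.765-fold without the 20 genes. Cd24a and Cd164 behaved alike, at 0.418-fold and 0.394-fold without the 20 genes. Foxc1 was higher, at 175.7 and 11.82 CPM. Kit, a receptor tyrosine kinase of intercalated duct progenitors, was lower, with 5 UMIs in organoids and 29 in tissue, 34.48-fold (13.20 to 114.1).

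All 6 genes of stem/progenitor II were higher, against 24.1% of all measured genes. Their median was 4.46 over all UMIs and 2.42 without the 20 genes. They are Itgb1, Itgb4 and Trp63, given above, Cd44, Alcam and Nt5e. The hyaluronan receptor Cd44 had 175.1 CPM in 11-day organoids, 92.66 in 7-day organoids and 16.15 in tissue, 10.84-fold higher (8.87 to 13.39) and 2.44-fold without the 20 genes. Of the 6, 5 were higher in the barcodes with at least 1% Malat1, where Itgb1 lost the call at a log2 ratio of 0.31 without the 20 genes. A further set was the 263 tissue barcodes that held duct or basal duct markers and no markers of immune, endothelial, stromal, erythroid or nerve cells, called duct-marker barcodes below. In these Cd44 lost the call at 0.20, and Itgb1, Itgb4, Alcam and Nt5e were higher, while Trp63 is one of the markers that chose them. Foxc1 lost the call there too, at 0.83, and 0 of the 4 measured genes of stem/progenitor I were higher. Alcam, an adhesion molecule, had 289.1, 33.69 and 11.98 CPM. Nt5e, the ecto-enzyme CD73, had 137.7 and 58.72 CPM in organoids and 0.333 CPM, or 2 UMIs, in tissue.

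Of 10 duct transcription factors 5 were lower, against 6.42% of all measured genes, and 3 were higher, near the 24.1% of all. Ascl3 and Foxi1, which mark ion-transporting duct cells, had 7.82 and 5.66 CPM in tissue and 5 UMIs and 1 UMI in organoids. Ascl3 was 55.88-fold lower (22.32 to 180.0). Elf5 and Sox10, factors of secretory and intercalated cells, were lower as well, with Elf5 at 15.31 CPM in tissue and 0.0840 CPM in organoids, and Barx2 was the fifth. Tfcp2l1 had 1168.9 CPM in 11-day organoids, 97.05 in 7-day organoids and 47.77 in tissue. Esrrg, an orphan nuclear receptor, had 427.6, 0.122 and 6.82 CPM, and Foxc1 was the other higher gene.

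Myoepithelial and contractile genes were low in both libraries. Of 9 measured of 10 listed, 8 were neither and Tagln was lower, with 14 UMIs in organoids and 12 in tissue. Acta2, smooth muscle actin, had 2.24 and 3.83 CPM, and Myh11 and Cnn1 had at most 1.09 CPM. Sparc and Csrp1, which are less restricted to these cells, had 110.6 and 153.3 CPM in organoids and 57.59 and 18.64 CPM in tissue.

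Genes of the Notch pathway, which passes signals between touching cells, were called in both directions. Of 15 measured genes of 16 listed, 7 were higher, 2 lower and 6 neither, against 24.1% higher and 6.42% lower among all measured genes. Notch1 had 126.5 CPM in 11-day organoids, 142.7 in 7-day organoids and 8.16 in tissue, 15.51-fold higher (11.71 to 21.00) and 3.49-fold without the 20 genes. Jag1 had 76.39 and 2.5 CPM, and Jag2, Notch3, Dll1, Maml1 and Maml2 were higher too. Maml2 had 229.1 CPM in 11-day organoids, 2.93 in 7-day organoids and 3.16 in tissue. The lower genes were Dll4, an endothelial ligand, at 0.140 and 3.33 CPM, and Mfng, at 0.112 and 3.99 CPM. The targets Hes1, Hey1 and Nrarp were neither, with Hes1 at 57.74 and 18.81 CPM, 0.691-fold without the 20 genes. The counts moved with the tissue barcodes used. With at least 1% Malat1, 6 genes were higher and 4 lower, while over all genes 3649 were higher and 2033 lower. In the duct-marker barcodes 4619 of all genes were higher and 389 lower, against 3706 and 988 as reported. Of 13 measured Notch genes there, 12 passed the call for higher and none for lower. Of these 12, 7 had no UMI in tissue, and 6 passed on both scales with the tissue set at 3 UMIs or more.

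Lists of genes that answer the factors of the medium were read against the 24.1% of all measured genes called higher. That share was 13.12% for genes without introns and 42.60% for genes with over 50 kb of introns, so it is a rough reference. Of 10 measured genes of Wnt response, from 13 listed, 8 were higher and none lower. Axin2, a feedback target of the pathway, had 21.25 CPM in 11-day organoids and 0.499 CPM, or 3 UMIs, in tissue, a ratio of 42.56 (14.51 to 206.9). The R-spondin receptor Lgr4 had 174.3 CPM on day 11, 28.99 on day 7 and 2.16 in tissue. Lgr5 had 5.85 CPM on day 11, 0.0610 on day 7 and no UMI in tissue. Znrf3, a ligase that removes Wnt receptors, had 107.7 CPM on day 11, 4.33 on day 7 and 2.00 in tissue, and Myc had 112.2, 51.27 and 2.00 CPM. Ccnd1 and Rnf43 were neither.

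Of 14 genes of EGF and FGF response, 10 were higher, 2 lower and 2 neither. Egfr itself had 273.7 CPM in 11-day organoids, 31.25 in 7-day organoids and 2.16 in tissue, 126.5-fold higher (73.92 to 237.6). Its ligand genes Areg and Ereg had 73.14 and 39.71 CPM against 1.17 and 0 CPM. Feedback genes of the same pathway were called in both directions. The phosphatase gene Dusp4 was higher, at 15.15 and 0.999 CPM. Spry4 and Phlda1 were lower, with Phlda1 at 63.18 CPM in organoids and 128.0 in tissue, and Dusp6 and Spry2 were neither, with Dusp6 at 28.59 and 14.32 CPM. Of 11 genes of glucocorticoid response, 5 were higher and 6 neither. Fkbp5 had 185.8 and 4.33 CPM, 42.94-fold higher (29.28 to 65.78) and 9.67-fold without the 20 genes, whereas Tsc22d3 and Per1 were near 1 without the 20 genes, at 1.1-fold and 1.16-fold.

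No gene of G2 and mitosis was called among 16, and 1 of 16 S phase genes was. Among all measured genes 24.1% were higher and 6.42% lower. Mki67 had 10.78 CPM (9.73 to 11.91) in 11-day organoids, 24.35 in 7-day organoids and 7.99 (5.89 to 10.59) in tissue. Top2a had 13.64, 48.16 and 8.16 CPM. The list median was 0.82 over all UMIs and -0.91 without the 20 genes. Pcna, the sliding clamp of replication, was higher, with 44.69, 11.66 and 4.33 CPM. The tissue barcodes with at least 1% Malat1 gave 6 of the 16 genes of G2 and mitosis lower in organoids and 1 higher. Of the S phase genes 3 were lower and 2 higher. Over all genes, 2033 were lower and 3649 higher in this set, against 988 and 3706 as reported. Mki67 and Top2a were lower there, at 9.83 against 32.56 CPM and 13.39 against 42.57 CPM. Few UMIs lie behind the tissue levels. All tissue barcodes held 48 UMIs of Mki67 and 49 of Top2a. The 263 duct-marker barcodes of the tissue held 6 and 0. Against these, 14 of the 16 genes of G2 and mitosis passed the call in the 10184 organoid barcodes chosen alike, but 12 of the 14 had no UMI in tissue, and 0 of the 14 passed on both scales with the tissue set at 3 UMIs or more. A difference was thus not detectable at this depth, where 3 UMIs are 2.27 CPM. Mki67 was neither, at 10.07 and 4.55 CPM.

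Immediate early and stress genes, which dissociation can switch on within minutes, were lower in 6 of 14 cases and higher in none. Among all measured genes 6.42% were lower and 24.1% higher. Hspa1a, a heat shock chaperone, had 265.5 CPM in tissue and 10.14 in 11-day organoids, 26.19-fold lower (23.35 to 29.44). Fos had 528.8 and 228.2 CPM, 2.32-fold lower (2.22 to 2.41) over all UMIs and 10.29-fold without the 20 genes. Jun had 404.3 and 946.2 CPM and was neither. Of 10 genes of MHC class I, 3 were lower, against the same 6.42%, and 7 neither. Psmb8, an immunoproteasome subunit, had 82.56 and 29.10 CPM, and B2m had 338.7 and 206.7 CPM.

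The call of these groups depends on which tissue barcodes are counted. In the 160 tissue barcodes with at least 1% Malat1, where the 20 genes made up 37.81% of UMIs, 13 of the 14 stress genes and 10 of the 10 MHC class I genes were lower in organoids. Over all genes, 2033 were called lower and 3649 higher in this set, against 988 and 3706 as reported. In that set Fos had 2882.4 CPM and B2m 1666.6 CPM, and immune markers occurred in 48.12% and endothelial markers in 42.50% of barcodes. Basal keratins had 7 of 8 genes higher in it, with Krt5 at 1014.7 and 2.5 CPM. In the 263 duct-marker barcodes, which hold no immune or endothelial markers by choice, 4 of the 14 stress genes and 0 of the 10 MHC class I genes were lower. None of either list was higher there, and over all genes 389 were lower and 4619 higher. The MHC class I median there was 1.64 over all UMIs and -0.82 without the 20 genes. B2m had 206.6 CPM in organoids and 51.56 in those tissue barcodes, 4.01-fold higher (3.16 to 5.17), and Psmb8 was 3.82-fold higher (2.07 to 7.99), both over all UMIs. Without the 20 genes their log2 ratios were -0.50 and -0.55, so the direction depends on the scale and both were neither. In the 26 tissue barcodes with at least 2500 genes, 2 stress genes were lower and 1 was higher, and 0 MHC class I genes were lower. Over all genes, 386 were lower and 4233 higher in that set.

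Antimicrobial and chemokine genes were also called in both directions. Of 13 measured of 14 listed, 7 were higher, 3 lower and 3 neither, against 24.1% higher and 6.42% lower among all measured genes. Wfdc2, a protease inhibitor of the whey acidic protein family, had 5834.3 CPM in 11-day organoids, 1847.9 in 7-day organoids and 76.24 in tissue, 76.53-fold higher (69.82 to 84.06) and 17.24-fold without the 20 genes. Lcn2, a siderophore-binding lipocalin, had 2672.7, 33.57 and 4.16 CPM. Ltf, lactoferrin, had 52.95 and 0.305 CPM in organoids and no UMI in tissue. The chemokine genes Cxcl5 and Ccl20 had 87.09 and 24.03 CPM in 11-day organoids and no UMI in tissue. Pigr, which carries antibodies into saliva, was lower, with 0.812 CPM in organoids and 43.61 in tissue, 53.70-fold (36.52 to 81.78), and the calprotectin genes S100a8 and S100a9, at 5.96 and 8.68 CPM against 48.61 and 51.77, were lower with it. Neither had a UMI in the tissue's duct-marker barcodes, where S100a8 had 213 UMIs and S100a9 had 305 in organoids. Against the floor of 3 tissue UMIs these are 2.66-fold and 3.81-fold over all UMIs and 0.471-fold and 0.674-fold without the 20 genes, so no direction is shown there.

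Among metabolic groups, antioxidant and iron genes were higher in 8 of 14 cases, against 24.1% of all measured genes, and lower in none. Gpx2, a glutathione peroxidase, had 876.2 CPM in 11-day organoids, 480.4 in 7-day organoids and 3.83 in tissue, 228.9-fold higher (152.5 to 361.1) and 51.55-fold without the 20 genes. Gclc, the rate-limiting enzyme of glutathione synthesis, had 720.6, 119.3 and 4.99 CPM, and the cystine transporter Slc7a11 had 667.0, 7.14 and 0.666 CPM. Nqo1 had 51.97 CPM and 1 UMI in tissue. Of 14 genes of glycolysis and hypoxia, 4 were higher, close to the 24.1% of all measured genes, and 10 neither, with Slc2a1 at 48.08 and 2.00 CPM. Of 76 nuclear respiratory chain genes 73 were neither, and of 13 mitochondrial genes 12.

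Markers of immune, endothelial and red blood cells were higher in tissue than in organoids. Of 19 measured immune genes 18 were lower and none was higher, of 12 endothelial genes 11, and of 5 erythroid genes 5. Among all measured genes 6.42% were lower. C1qb, a macrophage complement gene, had 414.3 CPM in tissue and no UMI in organoids, and Plvap, of vessel walls, had 137.5 CPM and 1 UMI. Adgre1 and Pecam1, which mark macrophages and endothelium, had 7.66 and 76.90 CPM in tissue and 0.0280 and 0.476 CPM in organoids. At least 2 UMIs of immune markers occurred in 64.03% of tissue barcodes and in 0.387% of organoid barcodes, of endothelial markers in 11.00% and 0.213%, and of erythroid markers in 38.43% and in 0 of 10339, which allows up to 0.0357%. Immune markers were found in 79.82% (76.20 to 83.11) of the 545 tissue barcodes with erythroid markers and in 54.18% (50.81 to 57.52) of the 873 without, at medians of 2495.0 and 2299.0 UMIs. For endothelial markers the order was the other way, with immune markers in 44.23% (36.29 to 52.39) of the 156 barcodes with them and in 66.48% (63.80 to 69.08) of the 1262 without. Many barcodes held markers of more than one type, so these shares are not shares of cells. How much of each share is free RNA was not tested.

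Marker RNA of acinar cells was not confined to acinar barcodes. Every tissue barcode held at least 2 UMIs of acinar markers. Acinar secretory products made up 73.07% of all tissue UMIs, 72.09% of those of tissue barcodes with immune markers, 48.66% with endothelial and 79.85% with erythroid markers. RNA of the most abundant genes was thus spread over barcodes with markers of other cells. All of the 263 duct-marker barcodes held acinar markers too, and the 20 genes made up 83.62% of their UMIs. Klk1, Krt5, Krt14, Krt15, Krt17 and Trp63 belong to the markers that chose these barcodes, so their levels there are no result. Aqp5, which did not choose them, had 234.3 CPM in them and 12.86 CPM in the matching organoid barcodes.

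The length of introns moved with the ratio. Among genes with at least 200 UMIs in the 2 libraries, the median log2 ratio without the 20 genes was -0.35 for 222 genes with no intron, -0.37 up to 2 kb, -0.17 from 2 to 10 kb, 0.26 from 10 to 50 kb and 1.02 for 2589 genes with over 50 kb. The share of measured genes called higher was 13.12% without introns and 42.60% over 50 kb. Genes with over 50 kb of introns took 20.61% of UMIs in 11-day organoids, 6.41% in 7-day organoids and 2.65% in tissue. For 7-day organoids against the same tissue library the medians were -0.93, -0.71, -0.72, -0.79 and -1.05. The 11-day matrix was written by software version 7.0.0 and the others by version 3.0.1. Whether reads in introns were counted is not given in the sources used here, and the part of the software in this pattern was not tested.

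Several genes stood high in 11-day organoids and low in both other libraries. Rbms3, an RNA-binding protein with 1288467 bases of introns, had 774.6 CPM on day 11, 9.09 on day 7 and 0.666 in tissue. Maml2, Esrrg, Chrm3 and Znrf3, given above, shared this pattern, and so did Lcn2 with 997 bases of introns. Ribosomal protein genes held a few of the same kind. Of 81 measured, 75 were neither, 6 were higher, against 24.1% of all measured genes, and none was lower. Their median was 0.19 without the 20 genes. Rpl27 had 1459.6 CPM in 11-day organoids, 10.44 in 7-day organoids and 1.83 in tissue, and Rps12 had 2892.0, 128.2 and 7.66 CPM. The 7-day and tissue libraries share a software version and a gene list, so culture and gene model cannot be told apart for such genes.

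**Figure D4:**
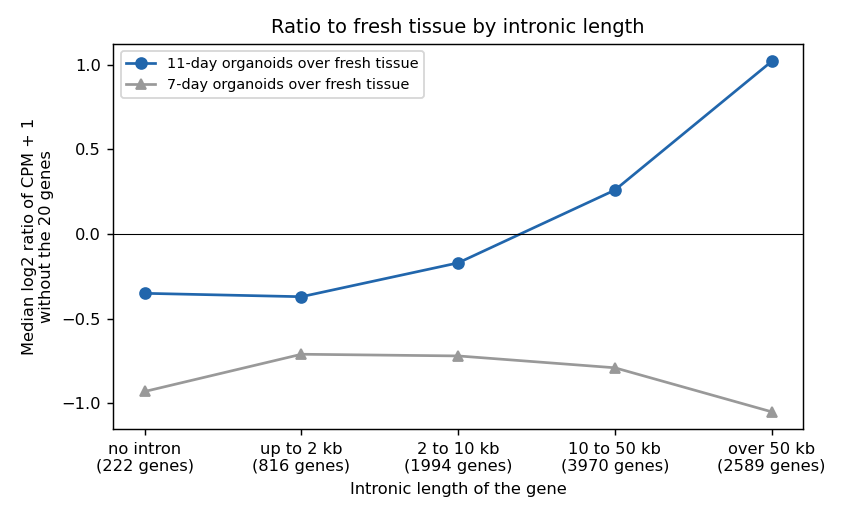
Genes with at least 200 UMIs in the 2 libraries are binned by intronic length, and each mark gives the median log2 ratio of CPM plus 1 without the 20 genes. The line of 11-day organoids over fresh tissue goes from -0.35 without introns to 1.02 over 50 kb, and that of 7-day organoids over the same tissue from -0.93 to -1.05.

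List medians were recomputed under 14 settings that keep the scale, and under median-of-ratios scaling. Over all UMIs, the median log2 ratio of acinar products lay between -13.25 and -9.49 in the 14 settings, and that of basal keratins between 4.84 and 8.22, with the upper end in tissue barcodes without non-epithelial markers, where its genes had no part in the choice. Adhesion genes lay between 3.04 and 4.68, and stem/progenitor II between 3.01 and 4.85. With median-of-ratios scaling the 4 medians were -14.01, 4.68, 2.06 and 2.13. Other medians changed sign over all UMIs. That of G2 and mitosis went from -0.84 to 2.55, MHC class I from -2.34 to 1.67, the stress genes from -2.62 to 0.46, the secretory pathway from -0.40 to 0.87 and stem/progenitor I from -0.15 to 1.36. Duct transcription factors, myoepithelial and mitochondrial genes changed sign too. Without the 20 genes the medians of G2 and mitosis, of S phase, of myoepithelial genes and of simple epithelium changed sign, the last from -0.26 to 0.82.

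**Figure D5:**
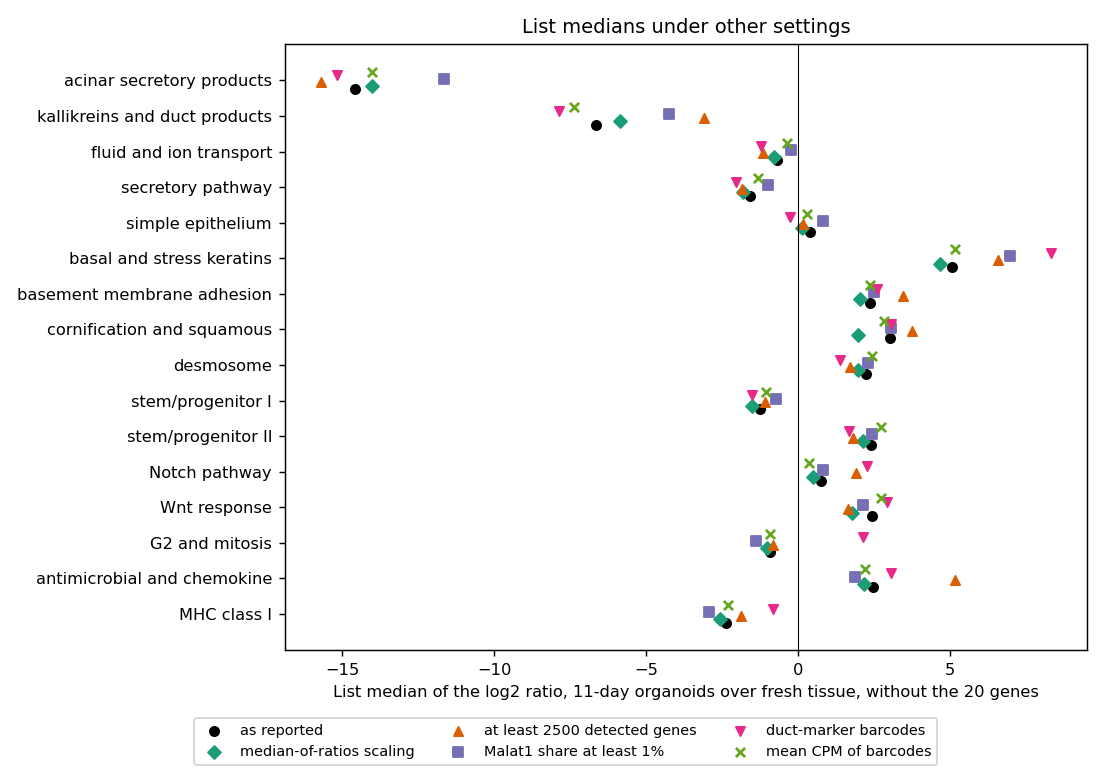
Marks give the median log2 ratio of 16 lists, 11-day organoids over fresh tissue without the 20 genes, as reported and under 5 other settings. Acinar products stay at or below -11.66 under each, while the duct-marker barcodes were chosen on some of the kallikrein and keratin genes, and G2 and mitosis lie at -0.91 as reported and at 2.13 in the duct-marker barcodes, where most of its genes have no tissue UMI.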

How the data were processed

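Values as deposited by the authors were whole-number UMI counts per gene and barcode, 1 matrix per library. The submitters' processing notes name Cell Ranger 5 and the mm10 build, the methods of the study name GRCm39, and the file headers name software 7.0.0 for 11-day organoids and 3.0.1 for fresh tissue and 7-day organoids. No barcode held fewer than 500 UMIs. Gene lists held 32285 and 31053 genes, matched by Ensembl ID. Groups came from the labels, with 1 library each, so no test was made.

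Barcodes with at least 200 detected genes and at most 5% mitochondrial UMIs were summed and scaled to CPM, over all matched genes and without the 20 genes with most tissue UMIs. Genes with at least 10 UMIs were called at 2-fold on CPM plus 1 on both scales. Intervals (95%) are exact Poisson for CPM, conditional exact binomial for ratios and Clopper-Pearson for shares. A gene at 0 UMIs was set at 3 UMIs in that library for its bound, while list medians use CPM plus 1. Doublets were not removed, and barcodes marked by Scrublet (scanpy 1.11.5) were left out as an alternative. Clusters were not made, and cell types are given by marker UMIs. Intron lengths came from GENCODE vM39 (GRCm39), which matched 29840 genes by ID, and promoters from RefSeq (GRCm38.p6). Python 3.11.15 with numpy 2.4.6, scipy 1.17.1 and pandas 2.3.3 was used, and the calculations were tested on simulated data.

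Named genes were those the study names for organoids and tissue, the 20 genes, the 12 highest and 12 lowest ratios among genes with at least 200 UMIs and 50 CPM (without unnamed gene models, ribosomal protein and mitochondrial genes), and up to 4 members with most UMIs per list, plus members that describe a range. The members and the 37 gene lists (28 pathway lists and 9 marker lists) were chosen with earlier results of these data known. A total of 17 alternatives were run, on scaling, pseudocount, count filter, barcode filter, doublets, depth and cell types. Some members of the lists are counted with their list and are not reported here one by one.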

Additional observations from a re-analysis of the deposited data

Results flagged for a closer look

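The barcodes left out by the filter were in no comparison, and the share of the 20 genes in them was above that in the kept barcodes. In fresh tissue, 12129 barcodes were left out, and the 20 genes with most tissue UMIs, led by Mucl2, made up 86.46% of their 13783630 UMIs, against 79.12% in the kept barcodes. In 11-day organoids, 3927 barcodes were left out, and the same genes, mitochondrial genes among them, made up 16.77% of their 4258407 UMIs, against 7.32% in the kept barcodes. All of these 11-day barcodes were left out for a mitochondrial share above 5%, and 11597 of the tissue barcodes had under 200 detected genes, so the filter itself sets part of both shares.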

How the results depend on the processing

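No paired analysis was possible because each side had 1 library, and for the same reason no library could be left out. The 3706 genes higher became 1828 at a pseudocount of 10 CPM, 10179 with CPM over all UMIs alone and 2450 with median-of-ratios scaling. The 988 genes lower became 311 at a pseudocount of 10 CPM, 228 at a minimum of 200 UMIs, 3011 without the 20 genes alone, 3252 with median-of-ratios scaling, 386 in barcodes with at least 2500 genes, 2033 in barcodes with at least 1% Malat1, 386 without barcodes of non-epithelial markers and 389 in the duct-marker barcodes, which hold acinar markers too. The tissue share of 79.12% for the 20 genes became 84.23% without a barcode filter, 74.13% and 83.01% at minimums of 500 and 2500 genes, 77.33% at a mitochondrial limit of 20%, 37.81% with the Malat1 minimum, 79.30% without doublets, 83.85% without non-epithelial barcodes, 83.62% in duct-marker barcodes, 77.88% after thinning and 77.74% as a mean over barcodes. Log2 ratios of genes of non-epithelial cells turned positive once their barcodes were left out, which removes them by construction. Without non-epithelial barcodes and in the duct-marker barcodes the log2 ratios were 0.04 and 0.04 for Adgre1, 0.39 and 0.39 for Dcn, 2.04 and 2.03 for Egfl7, 0.18 and 0.16 for Flt1 and 0.54 and 0.54 for Pecam1. At a minimum of 2500 genes Dcn was at 0.57 and Fos at 0.44, from 26 tissue barcodes, and the cause was not tested. No gene called higher was called lower in any of the settings, whereas 47 genes called lower were called higher in both settings without non-epithelial barcodes, 12 at 2500 genes and 1 after thinning. In the duct-marker barcodes 46 of the 47 had no tissue UMI, and 1 passed on both scales with the tissue set at 3 UMIs or more, so depth limits these calls. Of 629 list medians under other settings, 359 stayed within the counting intervals, 270 moved past them and none of the called directions reversed. Depth limits single values in tissue most, where 3 UMIs correspond to 0.499 CPM against 0.0840 CPM in organoids.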

Other observations

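Some further groups were read in the same way. Of 6 measured nuclear-retained RNAs, Neat1, Xist and Meg3 were higher in 11-day organoids, Gm42418 was lower, and Malat1 and Kcnq1ot1 were neither. Neat1, which builds paraspeckles, had 1098.8 CPM in 11-day organoids, 460.7 in 7-day organoids and 81.73 in tissue, 13.44-fold higher (12.30 to 14.73) and 3.03-fold without the 20 genes. Of 13 mitochondrially encoded genes 12 were neither and mt-Nd3 was lower, at 58.36 CPM in organoids and 118.4 in tissue. Of 3 measured Schwann and nerve genes none was called, and S100b had 81 UMIs in organoids and 3 in tissue. Cp, ceruloplasmin, a copper ferroxidase, had 1518.9 CPM in 11-day organoids, 11.96 in 7-day organoids and 1.17 in tissue. Mgp, an inhibitor of calcification, had 1038.1, 106.4 and 0.666 CPM. S100a14 and the beta-defensin gene Defb1 had 327.9 and 309.6 CPM in 11-day organoids, 2944.3 and 479.6 in 7-day organoids, and no UMI in tissue.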
